A study of Mus musculus with 8 samples.

Results

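Aff1, Aff3 and Aff4 encode members of the AFF family of nuclear scaffold proteins, and the chromatin regions that the deposited table annotates to these genes are described here. The table held 304 such regions of 489637 in all, 169 at Aff1, 123 at Aff3 and 12 at Aff4. Members were all regions carrying one of these gene names. Aff3 was chosen by its measured difference between the groups, since 2 of its regions were among those called less accessible in iMSBmal1KO muscle, so for Aff3 that difference is a description and not a test. Chromatin had been profiled by ATAC-seq, which uses a transposase to tag DNA that is not packed away, in nuclei of the gastrocnemius, a calf muscle, from mice aged 6 months. The groups were 4 libraries of vehicle-treated mice and 4 libraries labelled iMSBmal1KO from mice given tamoxifen, and all 8 carried the genotype Cre+:iMSBmal1 fl/fl. The floxed gene is Bmal1, a transcription factor of the circadian clock, and the label names an inducible knockout in skeletal muscle. Both groups thus carried Cre and the floxed alleles, and the drug and the loss of the gene cannot be told apart by this design. The labels do not name the promoter that drives Cre. Nuclei came from a pair of whole muscles and therefore also from cells other than fibres, so fewer nuclei of a type and less open chromatin per nucleus cannot be told apart.

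AFF proteins act in the control of transcription by RNA polymerase II. AFF1 and AFF4 are scaffolds of the super elongation complex, which brings together the kinase P-TEFb (CDK9 with a cyclin T), an ELL elongation factor and ENL or AF9, the products of Mllt1 and Mllt3, and so releases paused polymerase into the gene body. AFF4 is known as a scaffold at genes that respond quickly to signals, AFF1 as a fusion partner of MLL in leukaemia, and AFF3, also called LAF4, as a relative first described in lymphoid cells. NPAS2, the product of the next clock gene along chromosome 1 from Aff3, is a paralogue of CLOCK and can pair with BMAL1.

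The start sites of all 3 genes are in the RefSeq promoter table of GRCm38.p6, which gives 250 bases before to 50 after each start. The windows were rich in G and C, at 83.3% for Aff3, 79.0% for Aff4 and 77.3% and 63.0% for the pair of Aff1 starts, against a median of 52.7% over all promoters of that length. The following stretches, each 30 bases read 5′ to 3′ on the strand of the gene, are shown because they differ in whether they hold a clock-type E-box (CACGTG) or a GC box (GGGCGG) and in whether an accessible region covers them. Capitals mark the match.

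Aff4, E-box, chr11:53350703-53350732, plus strand: gcgcggcctggtCACGTGacgctcgcagca
Aff3, GC box, chr1:38627465-38627494, minus strand: ggcggagGGGCGGgcgcaggccgggagggg
Aff3, GC box, chr1:38627285-38627314, minus strand: aggcgggcaggcGGGCGGcggcggctcggg
Aff1, GC box, chr5:103754040-103754069, plus strand: gacagtgccccgGGGCGGcgggcatcgccg

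Searched on both strands, CACGTG, the sequence that BMAL1 and its partners bind, occurred in the Aff4 window, 52 bases before the start, and its letters were not in the other windows of the family. It was present in 7.15% of the 32851 promoters. GGGCGG, the GC box bound by Sp-type factors, occurred 5 times in the Aff3 window and 3 times in each Aff1 window, and 35.7% of all promoters held it. No member window held AGGTCA, TTATGNAA, TGACGTCA or TATAAA, found in 16.3%, 3.38%, 1.79% and 13.6% of promoters. Of the stretches shown, an accessible region covered those of Aff4 and Aff1 whole and the first of Aff3 in part, and none covered the second of Aff3. A match describes letters only and does not show binding. The accessible region at the start of Aff4 covered its window whole, and 2 regions covered the first Aff1 window whole, whereas a single region overlapped the Aff3 window over 27 of its 300 bases. These Aff1 windows belong to other starts than the most accessible start region of Aff1 at 103692179, for which the table gave no window.

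Depth ran from 4.31 to 29.5 M read equivalents per library (M for 1e6), that is, deposited signal divided by the signal of a single read. Vehicle replicate 4 stood apart as the shallowest library, with 16.5% of its signal on the mitochondrial genome against 1.11% to 5.51% in the other 7. Fast fibre genes (Acta1, Ckm, Myh4 and 5 others) all had tested regions, with a summed signal of 14136 to 24585 per library in vehicle and 19487 to 23414 in iMSBmal1KO. The targeted gene, listed as Arntl, had a summed signal of 1942 to 2688 in vehicle and 3023 to 3421 in iMSBmal1KO over its 82 regions, and as the floxed exon is not named this does not check the knockout. Of all regions, 124901 passed the filter on low signal, and 110 of these (0.0881%) differed at a limma adjusted p under 0.05, 39 higher (0.0312%) and 71 lower (0.0568%). All tested regions together had a median log2 change of 0.12.

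A pair of intronic regions of Aff3 lost most of their accessibility in the iMSBmal1KO libraries, at about 170 kb from the start of the annotated transcript. By the listed distances, the start of that transcript, Aff3-201, lies outside the RefSeq gene. The tested Aff3 start regions and the promoter window belong to other starts, which lie nearer to the pair. The region on chromosome 1, 38495388 to 38495558, intron 5 of transcript Aff3-201 and 169 kb from its start, gave, for the vehicle libraries in order, a signal of 189, 129, 152 and 90.7. For the iMSBmal1KO libraries it gave 24.8, 35.1, 41.7 and 37.6. Every iMSBmal1KO value thus lay below every vehicle value. The means were 140 ± 41.1 and 34.8 ± 7.21 (SD, n = 4 per group), a fold of 0.248, and the log2 change was -1.95 ± 0.26 (SE). Log2 changes are on the log2(signal + 1) scale, which understates the change of low regions. The limma adjusted p that brought this region into the called set was 0.00271. These values rested on 29 to 240 reads in the vehicle libraries and 30 to 58 in the iMSBmal1KO libraries.

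A neighbouring region, 38491502 to 38491725, lay 3.66 kb further into the gene and 173 kb from the same start. Vehicle replicates 1 to 4 had a signal of 66.1, 70.9, 24.8 and 68.8 there, and the iMSBmal1KO replicates 13.3, 14.2, 13.1 and 8.78. The groups did not overlap here either, but vehicle replicate 3 was far below the other vehicle libraries. The means were 57.6 ± 21.99 and 12.3 ± 2.43 (SD, n = 4 per group), a log2 change of -2.04 ± 0.34 (SE) and a limma adjusted p of 0.0156. Without vehicle replicate 4 the log2 changes of the pair were -2.15 and -1.92, with limma adjusted p of 3.10e-05 and 0.0103. The second region missed the threshold without vehicle replicate 1 (limma adjusted p of 0.119), without iMSBmal1KO replicate 3 (0.0789) and without iMSBmal1KO replicate 4 (0.0792), while the first kept its call in all 17 alternatives.

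**Figure D1:**
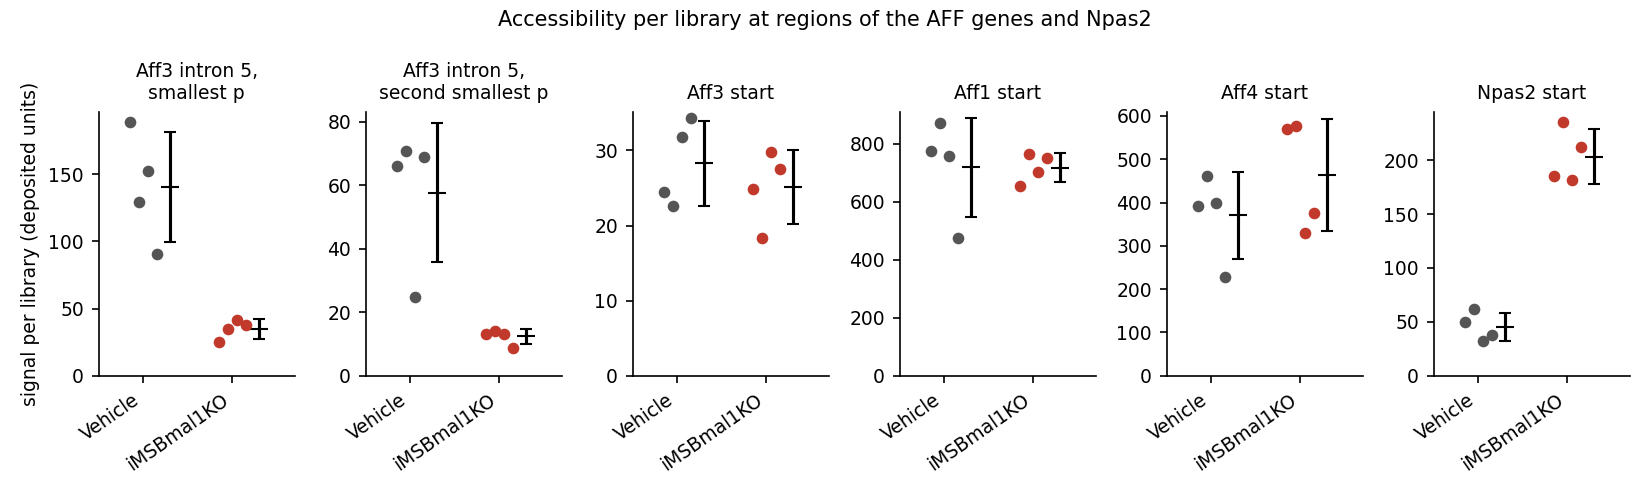
Signal per library (deposited units, axes from 0) at 6 regions, with vehicle libraries in grey, iMSBmal1KO libraries in red and the mean ± SD of 4 libraries in black beside each group. The groups are apart at both Aff3 intron regions (lower) and at Npas2 (higher), and overlap at the starts of Aff3, Aff1 and Aff4.

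Just outside the threshold lay the region 38502322 to 38502466 in the same intron. Vehicle libraries had a signal of 36.2, 23.6, 38.1 and 18.8 and iMSBmal1KO libraries 8.13, 10.0, 4.77 and 7.53, with a limma adjusted p of 0.0585. Its log2 change, -1.79 ± 0.35 (SE), was close to those of the called pair, and it passed the threshold in 6 of 16 alternatives. The next, 38526730 to 38526872, went from 17.4 ± 3.38 to 4.08 ± 2.41 (SD, n = 4 per group), with a limma adjusted p of 0.301. It is thinly covered, with 4 to 32 reads per vehicle library and 1 to 7 per iMSBmal1KO library.

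**Figure D2:**
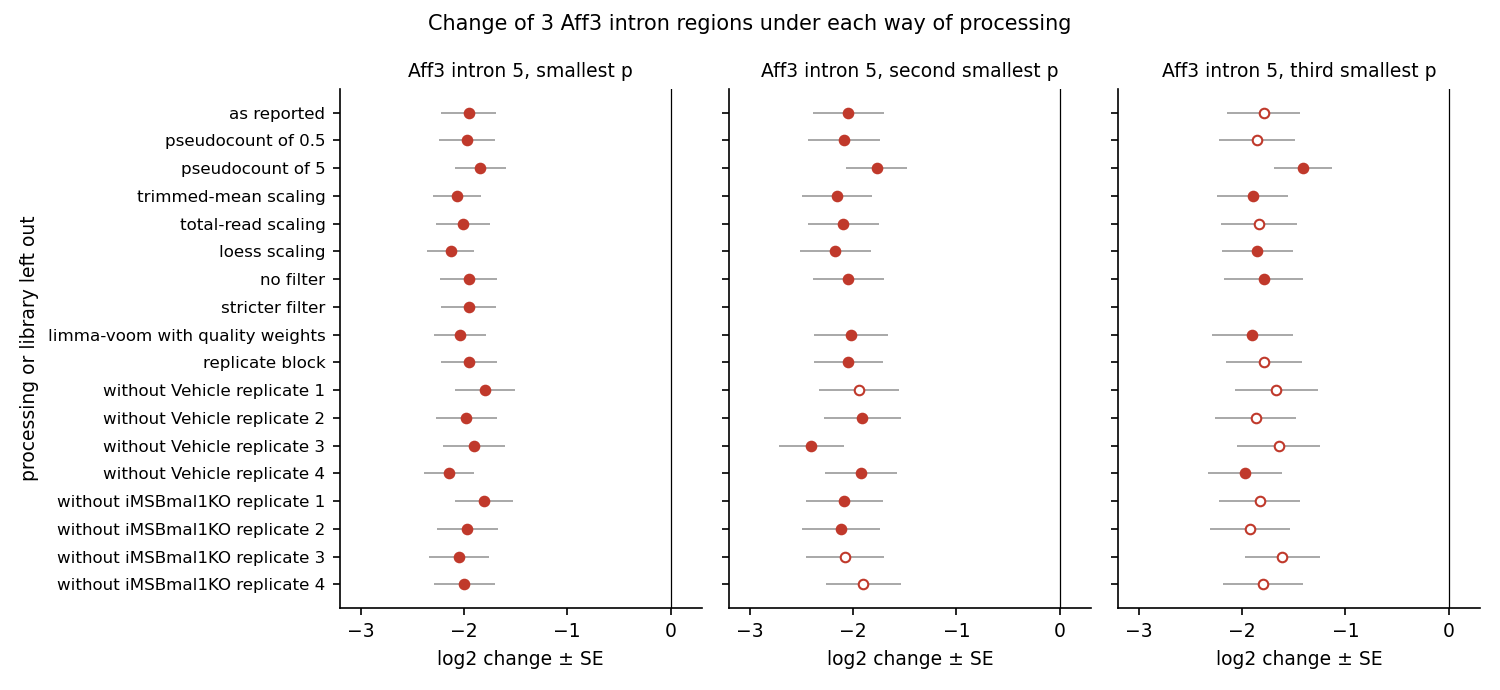
Log2 change ± SE (x axis) of the 3 Aff3 intron regions with the smallest p, under the reported processing and each alternative (rows), filled where the limma adjusted p was under 0.05. Every estimate lies below -1, and the second and the third region change sides of the threshold between rows.

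All 4 of these regions belong to intron 5 of Aff3, a grouping that was made after the values were seen and is therefore described without a test. The intron held 24 of the 123 Aff3 regions, 7 of them tested, spread over 76.2 kb. All 7 had a negative log2 change, from -2.04 to -0.54 with a median of -1.79, against 38.0% of all tested regions with a negative one. In 5 of them the groups were apart with iMSBmal1KO lower, against 1.87% of all tested regions. At 2 of these 5, 38502322 and 38526730, no iMSBmal1KO library reached the minimum of the filter and all 4 vehicle libraries did, so they were tested only because vehicle was high and had to be lower in iMSBmal1KO. Nothing is read from these counts. The most accessible of all Aff3 regions, 38450765 to 38451051, is among them. Its signal was 221, 189, 166 and 163 in vehicle and 110, 113, 100.2 and 148 in iMSBmal1KO. The groups were apart, but the log2 change was smaller than at the called pair, -0.65 ± 0.21 (SE), and the limma adjusted p was 0.423. The difference was not of 1 size along the intron, and the fold of the group means ran from 0.214 at 38491502 to 0.701 at 38450699.

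Of the 17 regions of intron 5 that were too weak to test, 13 had a lower mean in iMSBmal1KO (76.5%). A lower mean was also found in 52 of the 85 untested Aff3 regions outside the intron (61.2%) and in 54.2% of all untested regions. The 17 regions had a summed signal of 93.8 to 101 per vehicle library and 36.8 to 74.0 per iMSBmal1KO library. Over all 24 regions, tested or not, the vehicle sums were 704, 569, 554 and 500 and the iMSBmal1KO sums 239, 243, 256 and 316. Each iMSBmal1KO sum lay under the lowest vehicle sum. The intron took up 22.4% of the length of the Aff3 regions, but 46.0% of their vehicle signal and 29.6% of their iMSBmal1KO signal. Across the 8 libraries, the pairwise Pearson correlations of log2 signal among the 7 tested regions ran from 0.33 to 0.94 with a median of 0.77, values that include the difference between the groups and the shared depth of each library.

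Outside this intron no Aff3 region was called, which was fixed by choosing the intron after its called regions were seen. The 99 regions outside intron 5 summed to 603, 722, 691 and 713 in vehicle and to 607, 605, 638 and 656 in iMSBmal1KO, overlapping ranges. Of the 14 tested there, 8 had a negative log2 change and 6 a positive one (median -0.17), and the smallest limma adjusted p was 0.506. The most positive region, 38202954 to 38203108 in intron 16, had means of 11.2 ± 7.04 and 19.9 ± 3.58 (SD, n = 4 per group) and that same adjusted p. Its log2 change was 0.91 ± 0.38 (SE), and its groups overlapped. Summed over all 123 regions, Aff3 had 1307, 1291, 1245 and 1213 in vehicle and 847, 848, 895 and 972 in iMSBmal1KO. This is 1264 ± 43.0 against 890 ± 58.9 (SD, n = 4 per group), and 85.1% of the difference lay in intron 5. That share is a description, since the intron was chosen for its lower regions.

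In Aff3 as a whole, 21 of the 123 regions passed the filter on low signal, and 102 did not. Among the tested regions 2 were called lower and none higher, where 0.0568% and 0.0312% of all tested regions were. A negative log2 change was found in 15 of 21, against 38.0% of all tested regions, and the groups were apart with iMSBmal1KO lower in 5, against 1.87%. Because this contrast chose the gene, nothing is read from these counts. A further 9 regions inside the span of Aff3 are annotated to other genes, 3 of them tested. The strongest by far is a region of Gm16150, 38241270 to 38242283, with 1176 to 2274 in vehicle and 1196 to 1746 in iMSBmal1KO and a log2 change of -0.08 ± 0.20 (SE, adjusted p of 0.911 by limma).

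**Figure D3:**
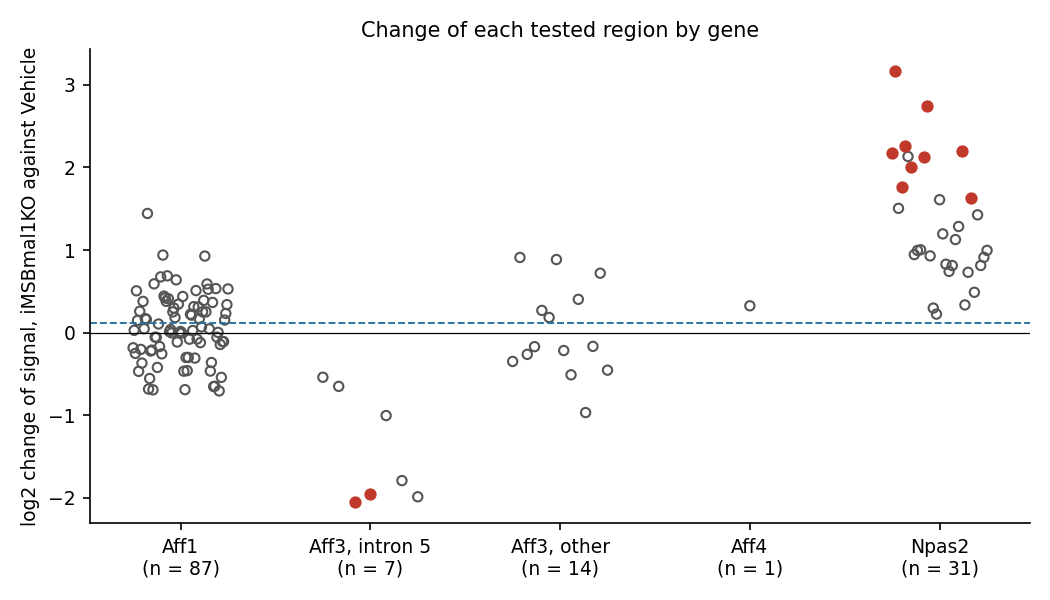
Log2 change of signal, iMSBmal1KO against vehicle (y axis), of each tested region by gene, in order of position within a gene, with regions at a limma adjusted p under 0.05 in red. The dashed line is the median of all tested regions, 0.12. The 7 regions of Aff3 intron 5 all lie below 0, Aff1 spreads around 0, and the 31 Npas2 regions all lie above 0.

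Aff1, the best covered of the family, had no region that passed the test. Only 0.0881% of all tested regions did, so nothing is read from this count. Of the 169 Aff1 regions 87 were tested, with a median log2 change of 0.04. By limma 0 were called, with a smallest adjusted p of 0.310. An unadjusted p under 0.05 was found in 7, or 8.05%, against 9.22% of all tested regions, 3 of them higher and 4 lower. In 3 of the 87 the groups did not overlap, or 3.45% against 5.48% of all tested regions. The summed signal was 5970, 5770, 5786 and 3865 in vehicle and 4734, 6169, 5231 and 5473 in iMSBmal1KO, so the ranges overlapped and the shallow vehicle replicate 4 was the lowest of all 8.

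The main start of Aff1, chromosome 5, 103692179 to 103692837, was the most accessible region of the family. It had a signal of 774, 872, 758 and 475 in vehicle and 654, 766, 701 and 750.2 in iMSBmal1KO, a log2 change of 0.03 ± 0.19 (SE, adjusted p of 0.970 by limma), and its sign changed with the scaling. The most negative Aff1 region lay in intron 15, 103846093 to 103846232, with 25.6, 26.7, 36.9 and 34.4 in vehicle and 17.1, 18.4, 19.1 and 18.8 in iMSBmal1KO. Here the groups were apart, with a log2 change of -0.70 ± 0.28 (SE), but the limma adjusted p was 0.501. At the most positive, 103711958 to 103712257 in intron 1, the vehicle libraries had 7.46, 13.4, 8.90 and 3.13 and the iMSBmal1KO libraries 15.8, 34.3, 27.4 and 15.1. The log2 change was 1.44 ± 0.41 (SE, adjusted p of 0.310 by limma), on as little as 1 read in a vehicle library.

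Aff4 was accessible almost solely at its start. Of its 12 regions 1 was tested, chromosome 11, 53350484 to 53351094, which held 88.8% of the vehicle signal of the gene and covers the E-box shown above. Its signal was 392.3, 461, 399 and 228 in vehicle and 571, 576, 329 and 376 in iMSBmal1KO. Replicates 1 and 2 of iMSBmal1KO were above every vehicle library and replicates 3 and 4 within the vehicle range. The means were 370 ± 99.6 and 463 ± 129 (SD, n = 4 per group), a log2 change of 0.33 ± 0.24 (SE) that did not pass the test (limma adjusted p of 0.656). The 11 weak regions summed to 31.98 to 62.9 per vehicle library and 49.3 to 65.1 per iMSBmal1KO library.

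The order of openness at the starts was the same in both groups, compared per kb of region length. For each gene the start region with the highest mean signal was taken, which need not be the highest per kb. In vehicle, the signal per kb was 1092 ± 259 at that of Aff1, 606 ± 163 at that of Aff4 and 65.4 ± 13.1 at that of Aff3 (SD, n = 4 per group). In iMSBmal1KO it was 1089 ± 77.2, 758 ± 211 and 58.1 ± 11.4. Aff1 and Aff4 overlapped in vehicle, at 721 to 1324 and 374 to 755. This Aff3 region lay below both in every library, at 42.5 to 79.4. The Aff3 start region, 38626696 to 38627128, had a signal of 24.5, 22.6, 31.8 and 34.4 in vehicle and 24.8, 18.4, 29.8 and 27.6 in iMSBmal1KO. These ranges overlapped, with a log2 change of -0.17 ± 0.29 (SE, adjusted p of 0.864 by limma). The other tested start region, 38627468 to 38627593, which overlaps the RefSeq window, had 10.7, 17.5, 18.4 and 6.25 in vehicle and 19.7, 26.8, 21.5 and 16.3 in iMSBmal1KO. Its groups overlapped too, and its log2 change was positive, 0.72 ± 0.36 (SE, adjusted p of 0.553 by limma). Per kb, the first called intron region had a vehicle mean of 820, and the start regions of Aff3 65.4 and 105.

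**Figure D4:**
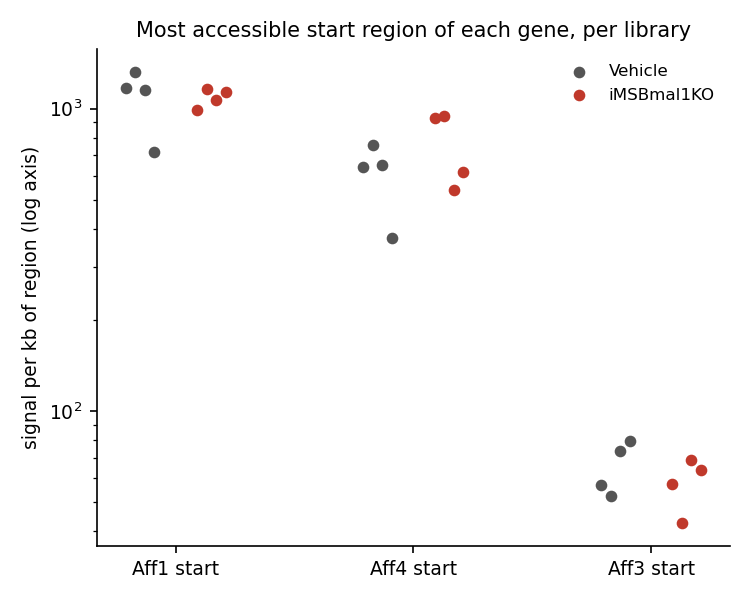
Signal per kb of region (log axis) in each library, with vehicle in grey and iMSBmal1KO in red. For Aff1, Aff4 and Aff3 the region annotated as a start with the highest mean signal, before division by length, is shown. The Aff3 region lies between 42.5 and 79.4 in all 8 libraries, below every value of the other genes, and the groups overlap at each gene. The other tested start region of Aff3, higher per kb in the vehicle mean, is not shown.

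Npas2, on the same chromosome, moved the other way. The RefSeq genes are 564 kb apart, Aff3 at 38175393 to 38630178 and Npas2 at 39193702 to 39363240, and the last Aff3 region and the first Npas2 region in the table are 539 kb apart. The Npas2 region nearest to Aff3 is also its region of smallest p, 39192753 to 39192965 at the start, and it lies 697 kb and 701 kb from the called Aff3 regions. Its signal was 50.1, 61.6, 32.4 and 37.5 in vehicle and 185, 235, 181 and 212 in iMSBmal1KO, with no overlap. Against the log2 changes of -1.95 and -2.04 at Aff3, that of this region was 2.17 ± 0.24 (SE, adjusted p of 2.98e-04 by limma). All 31 tested Npas2 regions were positive, from 0.22 to 3.17, where 38.0% of all tested regions were negative. Of the 31, 9 were called higher, against 0.0312% of all tested regions. A further 1 of the 31, not called, was tested only through iMSBmal1KO. The genes were set side by side because of these opposite directions, which are a description.

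The tested regions between the genes mostly had positive log2 changes without passing the test. It held 96 regions, of which 16 were tested, 12 intergenic and 4 annotated to Chst10, Pdcl3 and Gm37309. None was called by limma (smallest adjusted p of 0.0937), and 8 had an unadjusted p under 0.05, all higher, against 6.59% of all tested regions. Log2 changes ran from -0.10 to 1.87 with a median of 0.70. Of the 16, 14 were positive, where 38.0% of all tested regions were negative. In 7 the groups were apart with iMSBmal1KO higher, against 3.62% of all tested regions, and these 7 were intergenic and lay 86.8 to 191 kb before the first Npas2 region. At 39010843 to 39010900, 182 kb before it, the vehicle mean was 6.71 ± 3.798 and the iMSBmal1KO mean 24.9 ± 5.22 (SD, n = 4 per group). No vehicle library reached the minimum of the filter there, so this region was tested only because iMSBmal1KO was high and had to be higher in it. At 39105603 to 39105931, where all 8 libraries reached it, the means were 54.2 ± 14.0 and 110.6 ± 28.5. The region nearest to Aff3, 505 kb before Npas2, had a log2 change of -0.10 ± 0.59 (SE).

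**Figure D5:**
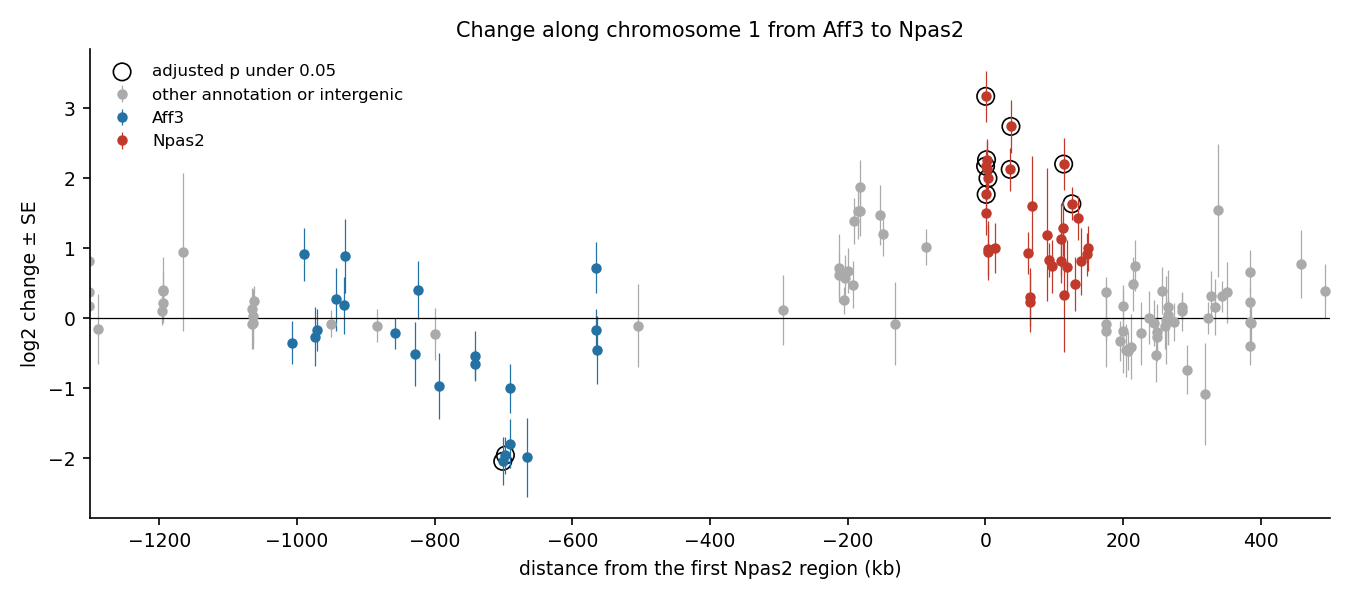
Log2 change ± SE of each tested region (y axis) by its distance from the first Npas2 region in kb (x axis), with Aff3 in blue, Npas2 in red, all other regions in grey and rings at a limma adjusted p under 0.05. The ringed low points, 697 and 701 kb before Npas2, are in Aff3 intron 5, and the raised grey points from 191 to 86.8 kb before Npas2 are intergenic.

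The other neighbours on both sides held no call, where 0.0881% of all tested regions were called. Within 1 Mb of these genes 33 genes had a tested region, and the 236 tested regions held the 2 lower calls of Aff3 and the 9 higher calls of Npas2 and no others. Rev1, beyond the 3′ end of Aff3, had a median log2 change of 0.03 over 5 regions. Inpp4a, further out on that side, had a median of -0.23 over 21 regions. Of these, 13 were negative, against 38.0% of all tested regions, and 20 lay below the median of all tested regions, 0.12. By limma 3 were lower at an unadjusted p under 0.05, against 2.63% of all tested regions (smallest adjusted p of 0.231). Inpp4a was named after its values were seen, so nothing is read from these counts. Rpl31 and Tbc1d8, just beyond Npas2, had medians of -0.08 over 3 and -0.06 over 23, and Pdcl3, which codes for a phosducin-like chaperone, had 0.42 over 2. At the start of Pdcl3, 38987296 to 38988020, the vehicle mean was 832 ± 220 and the iMSBmal1KO mean 970 ± 68.3 (SD, n = 4 per group, limma adjusted p of 0.660).

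The partners of AFF proteins in transcription elongation gave no called region. Only 0.0881% of all tested regions were called, so nothing is read from this count. The list held 34 genes of P-TEFb, the super elongation complex, their regulators and related factors, and all 34 had tested regions, 231 of 633. By limma 0 passed the threshold (smallest adjusted p of 0.313), 18 had an unadjusted p under 0.05 and were higher, and 3 were lower, against 6.59% and 2.63% of all tested regions. The median log2 change was 0.14, against 0.12 over all tested regions. Cdk9, the kinase of P-TEFb, had a signal at its start of 652 ± 152 in vehicle and 803 ± 117 in iMSBmal1KO (SD, n = 4 per group), with a limma adjusted p of 0.606. Its cyclin Ccnt1 had 587 ± 104 and 652 ± 49.4 (adjusted p of 0.768), and Ccnt2 had 16.4 ± 6.93 and 21.9 ± 4.97 (0.664).

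Among the other subunits, the elongation factor Ell had the strongest start of the list named here, with 1830 ± 369 in vehicle and 1963 ± 163 in iMSBmal1KO (SD, n = 4 per group, limma adjusted p of 0.825). Ell2 had 663 ± 127 and 653 ± 47.3 (0.994), and Ell3 had 21.4 ± 8.20 and 20.9 ± 3.61 (0.972). Mllt1 and Mllt3, the YEATS-domain readers of acetylated histones, had 266 ± 64.9 and 376 ± 43.6 (0.50), and 213 ± 59.3 and 269 ± 43.2 (0.609). The ELL-associated factor Eaf2 had 114 ± 28.0 and 125 ± 33.8 (0.873), while the start region of Eaf1 was too weak to test. Eaf1 had 2 tested regions elsewhere, with log2 changes of 0.33 and 0.42 (smallest limma adjusted p of 0.537). Its 6 regions summed to 448 ± 99.3 in vehicle and 584 ± 76.1 in iMSBmal1KO (SD, n = 4 per group). Aff2, the X-linked remaining member of the family, had 19.2 ± 12.6 and 17.5 ± 6.82 at its start (0.950). None of these starts passed the test, which does not show that they were alike in the groups: the log2 change at Mllt1, the most positive of those named here, was 0.53 ± 0.21 (SE).

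Marker genes of other cells were set beside the Aff3 result, and their part in it was not tested. Over 4 satellite cell genes the summed signal was 558 to 628 per vehicle library and 624 to 779 per iMSBmal1KO library, and over 5 fibro-adipogenic genes 520 to 734 and 553 to 792. Endothelial genes (5) had 1392 to 1867 and 1468 to 1773, smooth muscle and pericyte genes (4) 785 to 900 and 768 to 1044, macrophage genes (4, with Cd68 lacking a region) 391 to 675 and 424 to 549, T lymphocyte genes (3, with Cd3g lacking one) 59.4 to 88.4 and 52.5 to 94.2, and Schwann cell genes 947 to 1274 and 1045 to 1429. All these ranges overlapped. The B lymphocyte list (5 genes) was apart and higher in iMSBmal1KO, 281 to 327 against 385 to 468, opposite to Aff3. Cd79a and Ms4a1 of that list had no region, and the sum came mostly from Pax5, at 231 to 282 in vehicle and 352 to 421 in iMSBmal1KO. No tested region of any of these lists was called, where 0.0881% of all tested regions were.

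Genes and regions whose signal across the 8 libraries was most like that of the AFF genes were ranked by Pearson correlation, as a description of libraries that share depth and group. Among 2358 genes with at least 10 tested regions, the log2 summed signal of Aff3 was most like that of 1600002D24Rik (r of 0.98), Sorbs3 (0.97), Cstad (0.96), Spata13 (0.93) and Alpl (0.93). For Aff1 the closest were Gm37240 (0.98), Myom1 (0.98), Sgk1 (0.97), Gucd1 (0.97) and Otulin (0.97), and for Aff4 Cyth3, Snx1, Larp4b, Mcmbp and Susd6, each at 0.97 to 0.98. The first called Aff3 region was most like a start region of Sorbs3 on chromosome 14 and intron regions of Cdc14b, Plekhm3, Chmp5 and Man2a1 on chromosomes 13, 1, 4 and 17, each at 0.98. All 5 had negative log2 changes, from -2.57 at Chmp5 to -0.99 at Sorbs3, where the limma adjusted p was 0.0508. Likeness to a region chosen for its difference between the groups brings such regions forward.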

How the data were processed

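The members and lists were chosen with earlier results of these data known. The authors deposited a table of signal per region and library, with Ensembl gene annotation per the file headers. Partek, Bowtie2, MACS2 and DESeq2 and the builds mm10 and GRCm39 are named, without roles, per the submitters' processing notes. Gene positions matched GRCm38, and coordinates are as listed, counted from 1, with the end at the last base. Read trimming, duplicate removal and the shift of reads for the transposase are not given in the sources used here and could move values. Of the non-zero values, 98.3% to 99.8% per library were whole multiples of a step (tolerance 0.02 reads); since the rest were not, count tests were not used.

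Regions were tested where 4 libraries reached 0.762 read equivalents per M (1e6) and the total reached 15. limma 3.58.1 (R 4.3.3; limma-trend, robust) was fitted to log2(signal + 1) with group as the only term, over all 8 libraries, with Benjamini-Hochberg adjustment over 124901 regions. The labels do not say that libraries came from separate mice, so p-values measure the spread between libraries. Fits were tested on simulated data. Named regions were, per gene, those past the threshold, the most negative and most positive, the most accessible and the most accessible start, for Aff3 the next 2 lower regions, and for Npas2 the region of smallest p and that nearest to Aff3. Genes outside this rule were named after values were seen. Tables and figures used Python 3.11.15, pandas 2.3.3 and matplotlib 3.10.9. Single values of some marker genes are not reported here.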

Additional observations from a re-analysis of the deposited data

Results flagged for a closer look

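Of 34 group values examined (12 named regions and 5 summed signals in each of the groups of 4), 2 had a library farther from its neighbours than Dixon's limit for groups of that size, and chance gives about 1 in 20. At the Aff3 region 38491502 to 38491725, the signal of vehicle replicate 3 was 24.8, while its group otherwise lay at 66.1 to 70.9; the gap took 0.896 of the group's range. That library was still above all 4 iMSBmal1KO libraries there, and without it the log2 change was -2.40 with a limma adjusted p of 0.00419. For the summed signal of Aff1, vehicle replicate 4 had 3865 and the remaining vehicle libraries 5770 to 5970, so that the gap took 0.905 of the range. It is the library with the lowest depth, 4.31 M read equivalents, and the highest mitochondrial share, 16.5%; their part in the value was not tested.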

How the results depend on the processing

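Calls at Aff1, Aff4 and the elongation list were 0 in all 18 alternatives. Aff3, with 2 calls, had 4 with loess scaling, 1 with the stricter filter, 1 at a threshold of 0.01 and 1 to 3 when a library was left out. The stricter filter left the region 38491502 untested. Against 110 calls over all regions there were 277 with trimmed-mean scaling, 342 with loess, 195 with no filter, 303 with limma-voom and quality weights, 36 at 0.01 and 32 to 281 when a library was left out (32, 41, 43, 39 and 57 without vehicle replicates 1 and 3 and iMSBmal1KO replicates 2, 3 and 4, and 281 without vehicle replicate 4). The Aff1 start at 103692179 changed sign with trimmed-mean scaling (-0.0874), total-read scaling (-0.0240) and loess (-0.0849), and its log2 change ran from -0.16 to 0.13 when a library was left out. Scaling moved the median of all tested regions from 0.12 to 0.01 with trimmed means and with loess. The cause of these differences was not tested. With the replicate number as a block, 100 regions were called and the Aff3 pair kept its calls (limma adjusted p of 0.00993 and 0.0268). Deviations of same-numbered libraries correlated at -0.06, 0.14, 0.02 and 0.02. Low values do not exclude a pairing, and the labels do not state one. edgeR and DESeq2 were not run, since whole reads were not recovered for all values. Depth limits most the weak regions of vehicle replicate 4, where 24.9% of regions were at 0.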
